A study of Rattus norvegicus with 6 samples.

Results

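Genes of nitric oxide and cGMP signaling were followed in rat heart muscle after ischemia and reperfusion. Of the members, listed by symbol as Nos1, Nos2, Nos3, Gch1, Ddah1, Ddah2, Pde5a, Prkg1, Pde2a and Pde3a, 9 of 10 had a row among the 28293 genes of the deposited table. Prkg1, the cGMP-dependent protein kinase, had no row under that symbol and was not analysed here. The rule picks rows by gene name and uses no measured value, though the members were chosen with earlier results of these data known.

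Myocardial RNA was sequenced in a sham group and a myocardial ischemia/reperfusion group (MI/RI, written I/R in the labels) of 3 rats each. All 6 were male and wild type, and the surgery was a left thoracotomy. For I/R, the left anterior descending branch of the coronary arteries was tied off for 30 min and released, and hearts were collected 6 h into reperfusion. The labels write the same 30 min and 6 h for the sham rats, and the sampled region of the heart is not named, so how much injured and spared muscle each sample held is unknown. The labels name no agent, while the study's methods give both groups PBS as vehicle into the caudal vein and do not say whether the sequenced rats were among those rats. The comparison of I/R with sham asks how mRNA levels stood after reperfusion.

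Nitric oxide synthases make nitric oxide from arginine with tetrahydrobiopterin as cofactor. Nitric oxide binds soluble guanylate cyclase, which makes cGMP, and cGMP acts through protein kinase G and is broken down by phosphodiesterases. In the heart the endothelial synthase is known for its role in vessel tone, and the inducible synthase is known as an enzyme of inflammatory activation.

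Levels are FPKM, fragments per kilobase of gene, scaled to library size, so they are per length and can be compared between genes. Tests used limma on log2(FPKM + 0.1) over the 10942 genes with a mean of at least 0.5 FPKM, and a gene was called at an adjusted p under 0.05. Because a pseudocount was added, fold changes of low genes are understated. Of the 9 members with a row, 6 passed this filter. Nos2 was called higher and no member was called lower. Over all tested genes, 25.5% were called higher and 7.36% lower, so the members' count of 1 in 6 was near that background. Among the 6 tested members, 2 had an unadjusted limma p under 0.05, Nos2 and Ddah1. The share of all tested genes at that threshold was not computed. Every called gene passes it too, so that share is no smaller than the shares called, and no excess of members is claimed. The median log2 fold change was 0.47 over the 6 tested members and 0.29 over all tested genes.

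The libraries differed in composition beyond these genes. The 13 mitochondrially encoded mRNAs held 80.06% to 86.17% of the summed FPKM in sham and 61.81% to 71.45% in I/R. Of 7 cardiomyocyte markers, 5 were called higher, with a summed level of 3093 to 9793 FPKM in sham and 17926 to 23439 in I/R. In sham the summed level of these markers was highest in replicate 1, and in I/R it was highest in replicate 1 as well. Where the FPKM were rescaled over all genes other than the mitochondrial mRNAs, the median log2 fold change of all tested genes was -0.46 in place of 0.29, and 21.7% of all calls were higher in place of 77.6%. Members, cyclases and called pathway genes are therefore given with a value or adjusted p on that scale where sign or call differs. Other uncalled genes and most markers have none here, so their direction or call may differ there.

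The synthases came first in the pathway, and the inducible one changed. Nos2 measured 0.382, 0.426 and 0.180 FPKM in the sham samples and 1.33, 1.44 and 1.46 FPKM in the I/R samples, here and below in the order of replicates 1, 2 and 3. All 3 I/R samples lay above all 3 sham samples, and the I/R samples were close together. The means were 0.329 ± 0.131 FPKM in sham and 1.41 ± 0.0711 in I/R (SD, n = 3 each). Nos2 rose by 1.87 on the log2 scale (SE 0.34, 95% interval 1.11 to 2.63, limma adjusted p = 0.0051), and 4.56% of all tested genes had a larger log2 fold change. The call rested on few reads, 197 over the sham libraries and 687 over the I/R libraries. Its mean of 0.871 FPKM passed the filter only because of the I/R samples, and 87.1% of tested genes had a higher mean. On the scale without mitochondrial mRNAs, where 7.25% of all tested genes were called higher, the rise was 1.21 (adjusted p = 0.037), and no other member was called higher there. In bulk tissue, more cells that carry an mRNA and more mRNA per cell cannot be told apart.

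Some markers of inflammatory cells moved beside Nos2. Of 4 tested neutrophil markers, 3 were called higher, beside 25.5% of all tested genes. These were S100a8, S100a9 and Mmp8, the last of which passed the filter only through the I/R samples. The sum over all 7 was 12.9 to 17.7 FPKM in sham and 28.2 to 83.5 in I/R. Mpo was at 0 in every library and Camp at 0 in every sham library. Without mitochondrial mRNAs, S100a9 and Mmp8 were still called and S100a8 was not (adjusted p = 0.11). After quantile normalization S100a8 (adjusted p = 0.15) and S100a9 (adjusted p = 0.06) were not called. S100a8 was also not called when centred on the median (adjusted p = 0.062). Relative to the mean log2 level of those 7 markers in the same sample, Nos2 was -0.33, -0.06 and -0.63 in sham and 0.69, -0.07 and -0.15 in I/R. These ranges overlap, the difference was 0.50 and the exact permutation p was 0.3 (two-sided). With pseudocounts of 1 and 0.01 the difference was 0.0941 and 0.253. Of 6 tested monocyte and macrophage markers, Cd14, the lipopolysaccharide co-receptor, rose, Cd163, the haemoglobin scavenger receptor, fell, and 4 were not called. Cd14 was not called without mitochondrial mRNAs (adjusted p = 0.052). The sum over 7 markers overlapped between the groups, at 44.2 to 65.0 FPKM in sham and 61.9 to 79.5 in I/R. Relative to that list Nos2 was -2.19, -2.48 and -3.28 in sham and -1.09, -1.12 and -1.07 in I/R. Every I/R sample lay above every sham sample here, a difference of 1.56 with an exact permutation p of 0.1, the smallest that 3 against 3 allows, and 0.28 after adjustment over the 11 such comparisons. With a pseudocount of 1 that difference was 0.644. The part of these cells in the Nos2 level was not tested.

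Nos3, the endothelial synthase, was the most abundant member. It measured 13.7, 17.0 and 10.2 FPKM in sham and 13.7, 16.1 and 15.3 FPKM in I/R. The I/R values all lay inside the range of the sham values, with means of 13.6 ± 3.38 and 15.0 ± 1.24 FPKM. The log2 fold change was 0.17 (SE 0.25, 95% interval -0.38 to 0.72, adjusted p = 0.63). Its sign depended on the scale, since it was -0.61 without mitochondrial mRNAs (adjusted p = 0.095), and on sham replicate 3, without which it was -0.03. None of the 7 endothelial markers was called, and their sum ran from 173 to 227 FPKM in sham and from 170.4 to 213 in I/R. Relative to those markers Nos3 differed by 0.17 on the log2 scale (exact permutation p = 0.5).

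Nos1, the neuronal synthase, was close to the limit of detection. It measured 0.0867, 0.00432 and 0.0225 FPKM in sham and 0, 0.0709 and 0.0289 in I/R, which are 17, 1 and 5 reads and 0, 13 and 5 reads. The groups overlap, and at this depth no difference could be detected.

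Shares among the synthases do not move with the scaling of a library. Nos2 held 2.69%, 2.45% and 1.73% of the summed FPKM of the 3 synthases in sham and 8.88%, 8.20% and 8.69% in I/R. Nos3 held 97.4% ± 0.683 in sham and 91.2% ± 0.154 in I/R (SD, n = 3). Nos3 held the most synthase mRNA in every sample, while the Nos2 share was higher in each I/R sample than in any sham sample. The exact permutation p was 0.1 for either share, the smallest this design allows, and 0.22 after adjustment over 11 shares. Nos1 held a mean of only 0.284% in sham and 0.192% in I/R. The Nos2 and Nos3 shares thus mirror each other and are not separate results. The summed level of the synthases was 14.0 ± 3.50 FPKM in sham and 16.5 ± 1.34 in I/R.

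**Figure D1:**
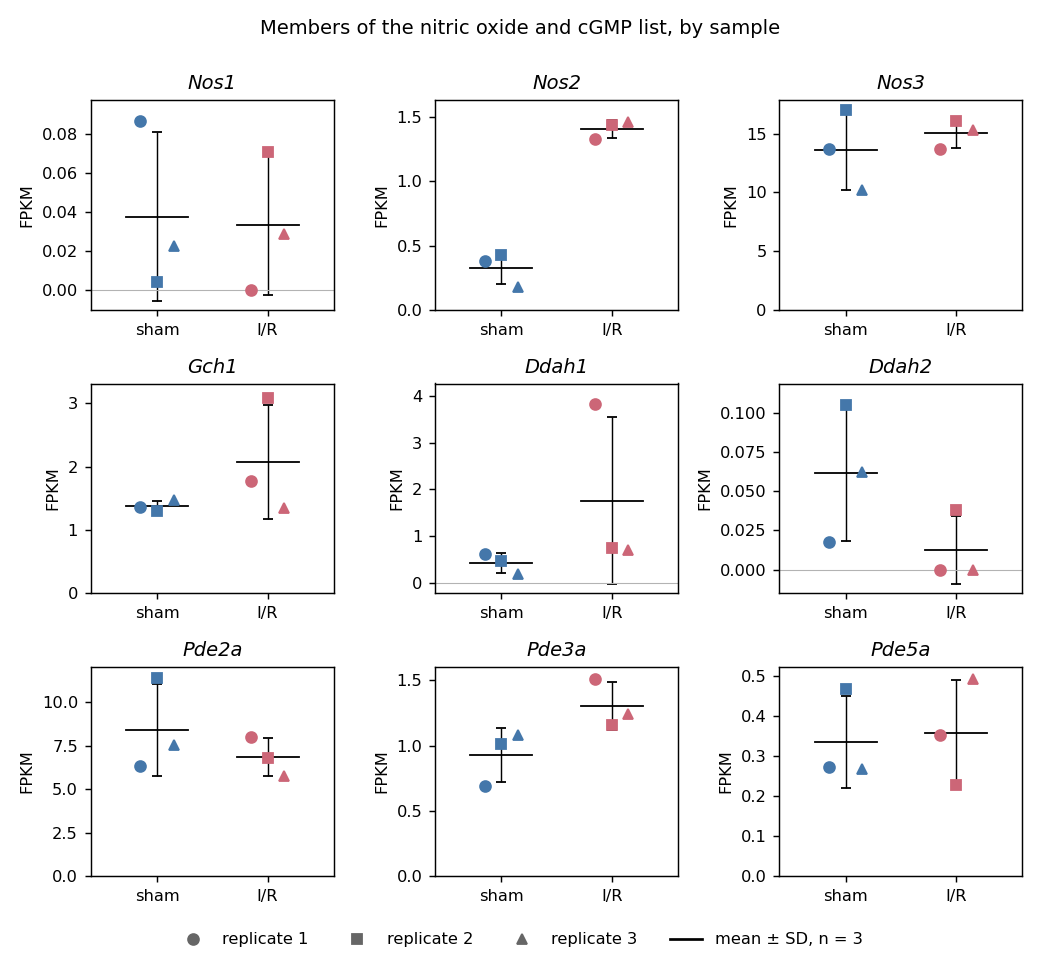
FPKM (y axes, linear, a scale for each gene) of the 9 members with a row in the 3 sham (blue) and 3 I/R (red) samples, with symbols for replicates and bars for mean ± SD. Nos2, Ddah1 and Pde3a have no overlap between groups, with I/R higher, which held for 37.2% of all tested genes. Ddah1 has 1 I/R sample at 3.82 FPKM far above the rest, and Nos1 and Ddah2 stay below 0.11 FPKM.

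Gch1, GTP cyclohydrolase, catalyses the first and rate-limiting step of tetrahydrobiopterin synthesis. It measured 1.36, 1.30 and 1.47 FPKM in sham and 1.78, 3.09 and 1.35 FPKM in I/R. I/R replicate 2 stood apart and I/R replicate 3 lay within the sham range. The log2 fold change was 0.48 (SE 0.30, 95% interval -0.20 to 1.15, adjusted p = 0.25), 0.16 without I/R replicate 2 and -0.26 without mitochondrial mRNAs. Relative to the neutrophil markers Gch1 was 1.27, 1.35 and 1.85 in sham and 1.09, 0.97 and -0.25 in I/R. The log2 difference was -0.89 (exact permutation p = 0.1, adjusted p = 0.28), and -0.462 without I/R replicate 3. With pseudocounts of 1 and 0.01 the difference over all samples was -0.439 and -1.4. Relative to the monocyte and macrophage markers Gch1 differed by 0.17 (exact permutation p = 0.8).

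Ddah1 and Ddah2 break down asymmetric dimethylarginine, an inhibitor of the synthases. Ddah1 measured 0.606, 0.469 and 0.193 FPKM in sham and 3.82, 0.742 and 0.698 FPKM in I/R. The groups do not overlap, but I/R replicate 1 was far above the others, with 379 reads against 79 and 70. The log2 fold change was 1.49 (SE 0.61, 95% interval 0.14 to 2.85) and was not called (limma adjusted p = 0.085). With the replicate number as a block it was called (adjusted p = 0.018). With a sham mean of 0.423 FPKM it passed the filter only through the I/R samples, and the I/R mean was carried by replicate 1. Without I/R replicate 1 the log2 fold change was 0.74 (adjusted p = 0.27). I/R replicate 1 also had the highest sum of cardiomyocyte markers, 23439 FPKM against 18544 and 17926 in I/R replicates 2 and 3. This did not hold for each marker, since Myl2 measured 3842.6 FPKM there against 4452.0 and 3853.6. Relative to these markers Ddah1 was -8.61, -7.96 and -8.52 in sham and -7.53, -9.24 and -9.27 in I/R, a difference of -0.32 (exact permutation p = 0.6). The part of muscle content in the Ddah1 level was not tested.

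Ddah2 was barely detected in any library. It measured 0.0177, 0.105 and 0.0624 FPKM in sham and 0, 0.0379 and 0 in I/R, or 12 reads over the sham libraries and 2 over the I/R libraries. The groups overlap, and too few reads were present to show a difference.

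Downstream of cGMP, Pde2a, a phosphodiesterase that cGMP stimulates, was the most abundant phosphodiesterase among the members. It measured 6.33, 11.4 and 7.57 FPKM in sham and 8.01, 6.82 and 5.80 FPKM in I/R. The groups overlap, and the highest value was a sham sample. The log2 fold change was -0.26 (SE 0.27, 95% interval -0.86 to 0.34, adjusted p = 0.48). On the scale without mitochondrial mRNAs it was called lower at -1.03 (adjusted p = 0.021), and likewise at -0.80 after quantile normalization (adjusted p = 0.040). Relative to the endothelial markers the difference was -0.26 (exact permutation p = 0.3).

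Pde3a, a phosphodiesterase that cGMP inhibits and that is known to break down cAMP in heart muscle, measured 0.691, 1.01 and 1.08 FPKM in sham and 1.51, 1.16 and 1.24 FPKM in I/R. The groups do not overlap, though the highest sham and the lowest I/R values were close. Nos2, Ddah1 and Pde3a were thus the 3 of 6 tested members with every I/R sample above every sham sample, which held for 37.2% of all tested genes. The log2 fold change was 0.46 (SE 0.27, 95% interval -0.15 to 1.08, adjusted p = 0.22), and it was -0.26 without mitochondrial mRNAs. Relative to the cardiomyocyte markers Pde3a was -8.45, -7.00 and -6.51 in sham and -8.81, -8.67 and -8.52 in I/R. The I/R samples were lower on this measure, by a log2 difference of -1.35, with an exact permutation p of 0.1 and an adjusted p of 0.28.

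Pde5a, the cGMP-specific phosphodiesterase of smooth muscle, lay under the filter. It measured 0.273, 0.468 and 0.267 FPKM in sham and 0.354, 0.229 and 0.492 FPKM in I/R, and the groups overlap. In the fit without a filter its log2 fold change was 0.06 (SE 0.35, adjusted p = 0.92). Relative to 7 smooth muscle and pericyte markers it differed by -0.34 (exact permutation p = 0.6). The sum of those markers varied widely within both groups, from 87.3 to 282.2 FPKM in sham and from 142.0 to 338 in I/R.

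Among the 8 listed phosphodiesterases with a row that hydrolyse cGMP, Pde2a and Pde9a made up most of the mRNA. Pde2a held 52.1% ± 5.47 of their summed FPKM in sham and 49.4% ± 5.33 in I/R, and Pde9a, a cGMP-specific enzyme, held 30.3% ± 6.98 and 25.1% ± 3.77. Pde3a held 5.11%, 5.10% and 7.43% in sham and 10.3%, 8.45% and 9.38% in I/R. The Pde3a share did not overlap between the groups, nor did those of Pde1a (6.16% ± 0.694 and 9.26% ± 0.984) and Pde10a (0.624% ± 0.0868 and 2.19% ± 0.602). For each of the 3 the exact permutation p was 0.1 and the adjusted p 0.22. Pde5a held 2.07% ± 0.275 in sham and 2.60% ± 1.03 in I/R.

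**Figure D2:**
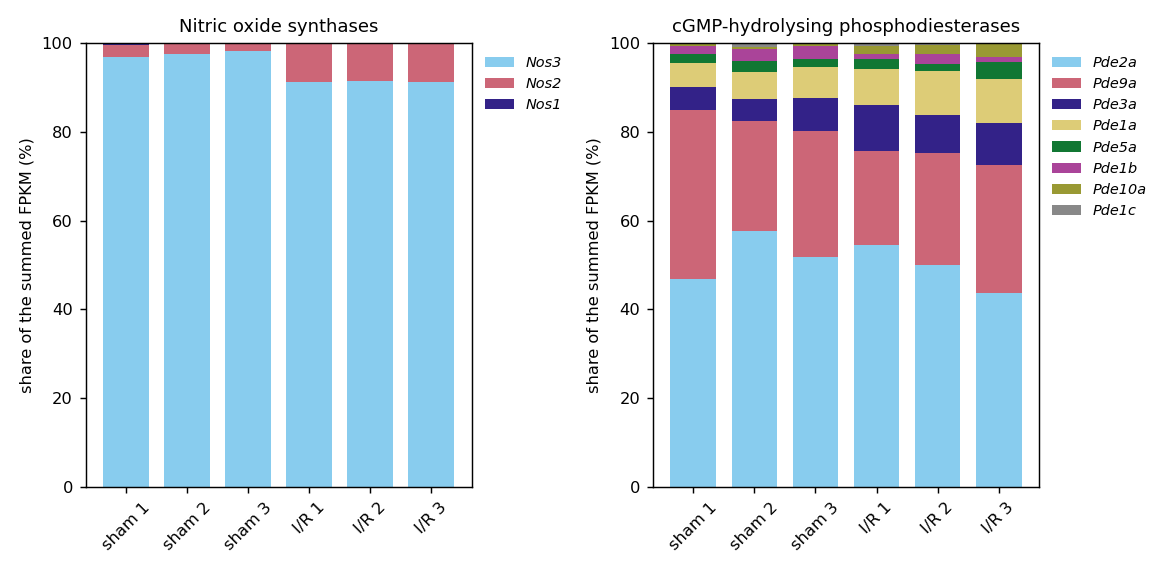
Stacked bars of the share (%) of each gene in the summed FPKM of the 3 nitric oxide synthases (left) and of 8 cGMP-hydrolysing phosphodiesterases (right), 1 bar for each of the 6 samples. Nos2 takes 1.73% to 2.69% of the synthase sum in sham and 8.20% to 8.88% in I/R, and Pde2a takes the largest share on the right in every sample.

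Around the members, a list of 53 other genes of the pathway was read from the same fit. Of the 48 with a row, 35 were tested, 10 were called higher (28.6%) and 3 lower (8.57%), with a median log2 fold change of 0.18. Both shares were near the 25.5% and 7.36% over all tested genes. The guanylate cyclases were the one group in which all tested genes lay below 0. Of these 4, 1 was called lower, and the group median was -0.59.

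Gucy1a1, an alpha subunit of soluble guanylate cyclase, measured 4.83, 6.87 and 6.34 FPKM in sham and 1.57, 2.02 and 2.77 FPKM in I/R. Every I/R sample lay below every sham sample. Gucy1a1 changed by -1.48 on the log2 scale (SE 0.26, 95% interval -2.07 to -0.89, limma adjusted p = 0.0046), and by -2.24 without mitochondrial mRNAs. Gucy1b1, the beta subunit with which it pairs in the active enzyme, measured 1.88, 2.41 and 2.50 FPKM in sham and 1.64, 2.18 and 1.90 FPKM in I/R. Those groups overlap, and the log2 fold change was -0.23 (SE 0.23, 95% interval -0.75 to 0.28, adjusted p = 0.46).

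The ratio of Gucy1a1 to Gucy1b1 FPKM, which does not depend on the scaling, was 2.57, 2.85 and 2.53 in sham and 0.953, 0.929 and 1.45 in I/R. The ratio was lower in every I/R sample, by a log2 difference of -1.28, with an exact permutation p of 0.1. This ratio was chosen after the values of both genes had been seen. Gucy1a2, the gene of another alpha subunit, had no row, so the ratio does not cover all alpha subunit mRNA. Npr1 and Npr2, the membrane-bound cyclases that natriuretic peptides activate, had log2 fold changes of -0.49 (adjusted p = 0.15) and -0.69 (adjusted p = 0.079), and neither was called. With the replicate block Npr2 was called lower (adjusted p = 0.047). On the scale without mitochondrial mRNAs, where 26.1% of all tested genes were called lower, all 4 tested cyclase genes were. There Gucy1b1 was at -0.98 (adjusted p = 0.034), Npr1 at -1.26 (adjusted p = 0.0070) and Npr2 at -1.46 (adjusted p = 0.0054).

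**Figure D3:**
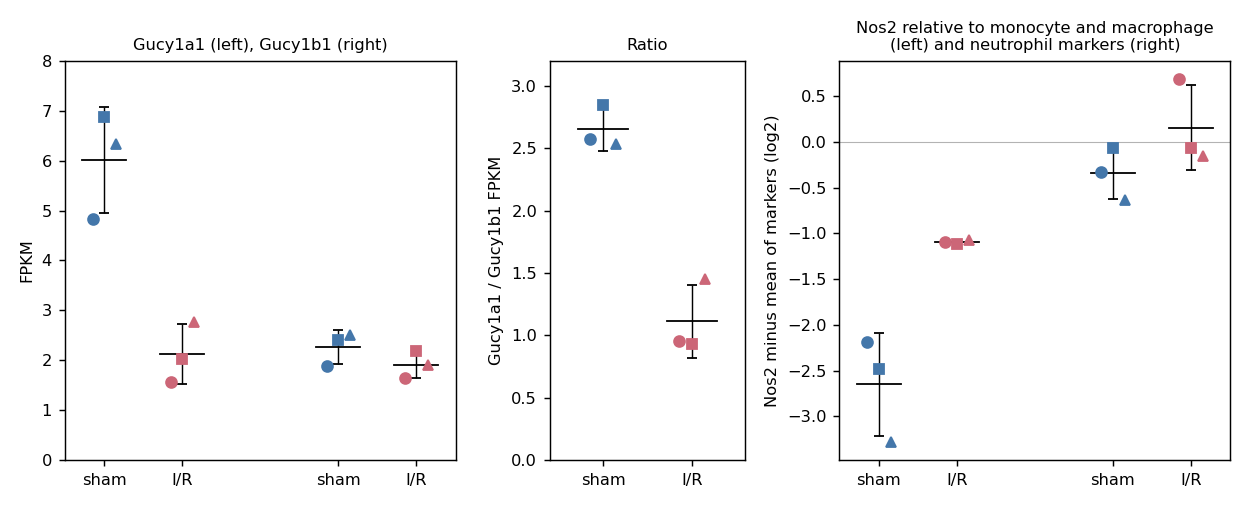
Left, FPKM of Gucy1a1 and Gucy1b1, middle, their ratio, and right, log2(FPKM + 0.1) of Nos2 minus the mean over 7 monocyte and macrophage or 7 neutrophil markers, in the 3 sham (blue) and 3 I/R (red) samples with mean ± SD and a symbol for each replicate. The ratio is 2.53 to 2.85 in sham and 0.929 to 1.45 in I/R, and Nos2 separates the groups relative to the monocyte and macrophage markers but overlaps relative to the neutrophil markers.

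Of the 14 tested genes that feed or partner the synthases, 4 were called higher (28.6%), near the 25.5% over all tested genes. With the replicate block Spr, sepiapterin reductase of tetrahydrobiopterin synthesis, was called too (0.83, adjusted p = 0.067 without the block and 0.011 with it). Slc7a1, the cationic amino acid transporter that takes up arginine, measured 0.274, 0.212 and 0.223 FPKM in sham and 1.20, 1.84 and 1.13 FPKM in I/R. Slc7a1 rose by 2.12 (adjusted p = 0.0035) and by 1.49 without mitochondrial mRNAs, though with a sham mean of 0.236 FPKM it entered the test only through the I/R samples. Qdpr, which recycles tetrahydrobiopterin, measured 6.46, 5.63 and 5.79 FPKM in sham and 27.5, 14.5 and 13.5 FPKM in I/R. The rise was 1.54 (adjusted p = 0.0056), and every I/R sample lay above every sham sample. Cav3, the muscle caveolin that binds synthases, rose by 2.29 (adjusted p = 0.0037), and Prmt1, an arginine methyltransferase whose action yields asymmetric dimethylarginine, rose by 1.37 (adjusted p = 0.0037). Cav3 kept its call on the scale without mitochondrial mRNAs and Prmt1 did not (adjusted p = 0.065). Caveolin 1, Cav1, of the endothelium was not called (0.22, adjusted p = 0.56).

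Of the genes that remove nitric oxide or its adducts, 3 of 4 tested were called higher, beside 25.5% of all tested genes. Mb, myoglobin, which oxidises nitric oxide and is also a major protein of heart muscle, ran from 181.2 to 638 FPKM in sham and from 1489 to 2248 in I/R, a log2 fold change of 2.55 (adjusted p = 0.0043). Adh5, the S-nitrosoglutathione reductase, rose by 0.92 (adjusted p = 0.016) and Cyb5r3, a cytochrome b5 reductase that acts on haem iron, rose by 0.79 (adjusted p = 0.039). On the scale without mitochondrial mRNAs these were 0.15 and 0.00 and neither was called, whereas Mb was still called at 1.77, where 7.25% of all tested genes were called higher. Adh5 also lost its call without sham replicate 2 (adjusted p = 0.052) or 3 (adjusted p = 0.069) and after quantile normalization (adjusted p = 0.078). Cyb5r3 lost its call without any 1 of 5 libraries, all but sham replicate 1 (adjusted p of 0.058 to 0.16), when centred (adjusted p = 0.078) and with no filter (adjusted p = 0.056). The 5 cardiomyocyte markers called higher in the same samples had log2 fold changes of 1.83 to 2.68. The lowest of them, Myl2, was 1.04 and not called without mitochondrial mRNAs (adjusted p = 0.056). The remaining markers, Ryr2 (0.82, adjusted p = 0.11) and Ttn (0.68, adjusted p = 0.074), were not called. The part of muscle content in the levels of Mb and Cav3 was not tested.

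Kinase targets and other phosphodiesterases went both ways. Rgs2, a G protein regulator that the cGMP-dependent kinase phosphorylates, measured 1.11, 1.73 and 3.16 FPKM in sham and 11.3, 6.65 and 7.90 FPKM in I/R, a rise of 2.14 (adjusted p = 0.0040). Vasp, an actin regulator and a classical substrate of the kinase, rose by 0.97 (adjusted p = 0.014), with 0.19 and no call without mitochondrial mRNAs. Vasp also lost its call without sham replicate 3 (adjusted p = 0.062), without I/R replicate 2 (adjusted p = 0.053) and after quantile normalization (adjusted p = 0.067). Ppp1r12a, the targeting subunit of myosin phosphatase, was called lower with the replicate block (-0.74, adjusted p = 0.064 without the block and 0.025 with it). Of the cAMP-specific enzymes, Pde4b rose by 1.25 (adjusted p = 0.0098) and was not called without mitochondrial mRNAs (0.55). Pde7a changed by -1.60 (adjusted p = 0.026) and Pde4c by -1.04 (adjusted p = 0.018). Both were called lower on the scale without mitochondrial mRNAs as well, where 26.1% of all tested genes were. Pde7a was not called without sham replicate 2 (adjusted p = 0.091), sham replicate 3 (adjusted p = 0.11) or I/R replicate 1 (adjusted p = 0.071), or with no filter (adjusted p = 0.082). Pde4c, which sums 2 rows, was not called without sham replicate 2 (adjusted p = 0.053) or with no filter (adjusted p = 0.051).

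Of the 13 pathway genes called and named here, 8 kept their call without mitochondrial mRNAs, and 6 kept it under each alternative in which they were tested. These 6 were Cav3, Rgs2 and Qdpr, tested in 18 alternatives, and Mb, Slc7a1 and Gucy1a1, tested in 17. The 8 hold all 3 genes called lower and 5 of the 10 called higher. Rescaling without mitochondrial mRNAs moved the median gene down, from 0.29 to -0.46. It could therefore hardly remove a lower call, and the 3 kept there say little.

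**Figure D4:**
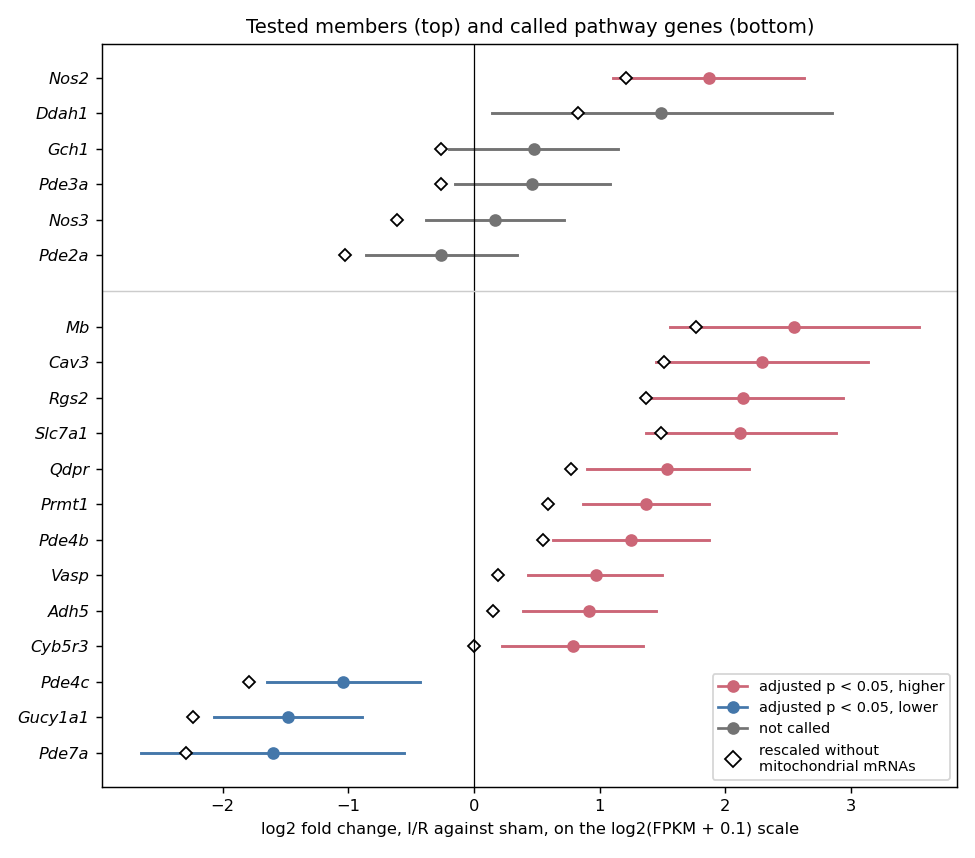
Log2 fold changes of I/R against sham on the log2(FPKM + 0.1) scale (x axis) with 95% intervals for the 6 tested members (top) and the 13 pathway genes called (bottom), coloured by call, with open diamonds for the value after rescaling without mitochondrial mRNAs. The diamonds all lie to the left of the filled points, and those of Nos3, Gch1 and Pde3a cross 0 while that of Nos2 stays at 1.21.

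Pathway genes under the filter were read in the fit without one. Of these 13, 2 were called higher, and of all 19226 genes in that fit 11.4% were called higher and 3.32% lower. Pde4d, a cAMP-specific phosphodiesterase of heart muscle, rose by 1.12 (adjusted p = 0.046). Pde10a rose by 1.01 (adjusted p = 0.042) on 60 reads over the sham libraries and 149 over the I/R libraries. Both were named after their values had been seen, and their values on other scales were not computed.

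Promoter sequences are shown for the 3 tested members of nitric oxide formation for which the RefSeq table (build GRCr8) holds a window, and for Gucy1a1 and Gucy1b1 of soluble guanylate cyclase. Of the 10 members, 8 matched a window by symbol, and Nos2 and Ddah2 had none. Each sequence is the 200 bases before the annotated start of transcription, 5′ to 3′ on the strand of the gene, and capitals mark the motifs found. Nos3 lies at chr4:11706582-11706781 on the minus strand, Gch1 at chr15:22917413-22917612 (minus), Ddah1 at chr2:237327612-237327811 (plus), Gucy1a1 at chr2:169779624-169779823 (minus) and Gucy1b1 at chr2:169696988-169697187 (minus).
Nos3: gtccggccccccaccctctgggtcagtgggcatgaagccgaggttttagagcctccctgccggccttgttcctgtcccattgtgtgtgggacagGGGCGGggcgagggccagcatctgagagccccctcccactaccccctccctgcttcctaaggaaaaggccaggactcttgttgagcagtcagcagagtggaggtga
Gch1: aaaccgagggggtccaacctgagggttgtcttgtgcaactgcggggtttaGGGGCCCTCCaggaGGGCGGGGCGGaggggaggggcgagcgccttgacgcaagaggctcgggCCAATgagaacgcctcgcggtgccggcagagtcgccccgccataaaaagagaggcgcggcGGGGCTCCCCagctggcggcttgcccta
Ddah1: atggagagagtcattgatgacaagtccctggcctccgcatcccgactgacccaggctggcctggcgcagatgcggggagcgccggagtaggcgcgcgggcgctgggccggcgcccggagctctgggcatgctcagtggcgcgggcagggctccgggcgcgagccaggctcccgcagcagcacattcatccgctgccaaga
Gucy1a1: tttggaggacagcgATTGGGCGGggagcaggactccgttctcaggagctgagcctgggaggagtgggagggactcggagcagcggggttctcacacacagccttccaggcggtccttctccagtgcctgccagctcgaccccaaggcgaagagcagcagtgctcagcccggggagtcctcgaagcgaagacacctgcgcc
Gucy1b1: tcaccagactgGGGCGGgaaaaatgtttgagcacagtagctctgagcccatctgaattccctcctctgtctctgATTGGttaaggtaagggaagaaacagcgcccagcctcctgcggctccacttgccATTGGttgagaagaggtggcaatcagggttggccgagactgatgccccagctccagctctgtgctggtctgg

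Both strands of the whole windows, 250 bases before to 50 after the start, were searched for 6 motifs, and their shares of all 33469 windows were 33.1% for the GC box GGGCGG, 37.5% for CCAAT, 14.2% for TATAAA, 7.33% for the AP-1 site TGANTCA, 19.3% for the hypoxia response core ACGTG and 7.51% for the NF-kB consensus. The Nos3 window held 1 GC box, 106 bases before the start. The Gch1 window held 2 NF-kB consensus matches, 150 and 28 bases before the start, besides 2 GC boxes that share a base and 1 CCAAT. The Ddah1 window held none of the 6. Gucy1a1 held 1 GC box and 1 CCAAT, on the reverse strand, that share bases, and Gucy1b1 held 1 GC box and 2 CCAAT on the reverse strand. Both subunit genes thus carried the same kinds of match, and no binding was measured in these samples.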

How the data were processed

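RNA from the myocardium of 3 sham and 3 I/R rats was analysed. The authors deposited FPKM values per gene and sample. Per the labels, libraries were made with a stranded total RNA kit, and the submitters' processing notes name STAR and HTSeq with no version. The genome build, the annotation and the total by which FPKM were divided are not given in the sources used here. The 30452 rows, 7092 of them without a symbol, were summed by symbol to 28293 genes.

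Log2(FPKM + 0.1) of the 10942 genes with a mean of at least 0.5 FPKM was compared with limma 3.58.1 in R 4.3.3 (eBayes with trend, Benjamini-Hochberg adjustment over all genes). The fit was tested on simulated data first. Values of 1 gene, shares and differences from markers were compared by two-sided exact permutation tests, with a smallest p of 0.1. Nothing in the labels states separate litters or days, so p-values measure the spread between these samples. The members and lists were chosen with earlier results of these data known. Named pathway genes are, in each direction, up to 10 with the largest change among those called without overlap.

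FPKM steps gave whole reads for 10789 of 10832 single-row tested genes (99.6%, tolerance 0.02 reads), with relative depths of 0.8727 to 1.181. Read numbers given are these, and they hold up to a common factor. They were tested by limma voom as an added alternative, which called 2894 genes higher and 853 lower. Samples with the same replicate number correlated at 0.203, 0.117 and 0.118 in their deviations from the group means, and sham 3 with I/R 2 at 0.120. The labels name no shared litter or batch. Not all matched pairs exceeded the unmatched pair, and the study describes no pairing of rats, so the block is an alternative only. Blocked values are given where they change a call. Alternatives changed the pseudocount, filter, scaling, normalization, trend, block, handling of repeated symbols and each replicate. Protein sequences and gene coordinates were not used here. One result on a pathway gene under the filter is not reported here.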

Additional observations from a re-analysis of the deposited data

How the results depend on the processing

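Nos2 was called higher under every alternative in which it was tested, with log2 fold changes of 0.86 (pseudocount 1) to 2.19 (whole reads with voom) and of 1.59 to 2.04 when each replicate was left out. It was not tested at a mean of at least 5 FPKM, where no member (0) was called higher. With the replicate block 2 members were called higher, Nos2 and Ddah1, and 5 other pathway genes lower. That fit called more genes in general, 3085 higher and 895 lower of the 10942 tested, so no excess of members is claimed. Spr, Npr2 and Ppp1r12a gained a call with the block, which changed no other call among the members and pathway genes.

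The scaling mattered most. Rescaled without mitochondrial mRNAs, 793 of all genes were called higher and 2857 lower, 1 member lower (Pde2a), and 5 other pathway genes higher and 11 lower. Not all of those 11 are named above. Quantile normalization gave 1441 higher and 1559 lower (48% of calls higher), with 1 member and 8 pathway genes lower. Centring on the median gave 1554 lower (56.5% higher) and 8 pathway genes lower. TPM gave 504 lower (87.3% higher), and a mean of at least 5 FPKM gave 166 lower (91.9% higher) with 0 pathway genes lower. Signs turned for Nos3 (-0.61 without mitochondrial mRNAs, -0.08 centred, -0.56 quantile), Gch1 (-0.26 without mitochondrial mRNAs), Pde3a (-0.26 likewise) and Cyb5r3 (-0.11 quantile). The difference of Nos2 from the monocyte and macrophage markers was 0.644 with a pseudocount of 1.

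Leaving out each replicate gave 1528 to 2557 genes higher and 309 to 881 lower, 1 to 5 pathway genes lower, and a Nos3 log2 fold change of -0.03 to 0.34. The lowest counts were without sham replicate 3 (1528 higher) and sham replicate 2 (309 lower). Apart from what the scalings and the pseudocount show by construction, the cause was not tested. Nos1 and Ddah2 were limited by depth, and the 3 against 3 design limits every permutation test to 0.1.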
